A study of Mus musculus with 12 samples.

Results

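Heat shock chaperones of the cytosol, nucleus and mitochondria were followed in mouse fibroblasts given doxorubicin or hydrogen peroxide to induce senescence (a lasting arrest of growth), as the series design states. The set is a list of 34 genes named by symbol: the stress transcription factor Hsf1, HSP70 and HSP110 proteins, HSP40 cochaperones, HSP90 with its cochaperones, subunits of the TRiC chaperonin, mitochondrial chaperones, small heat shock proteins and Bag3. All 34 were found among 55487 genes, and all 34 passed the filter on low values (1 CPM in at least 3 of 12 libraries, where CPM is the count of a gene scaled to 1e+06 reads per library). RNA sequencing was done on a primary fibroblast line (MMF) that was grown out of the mammary fat pad of 1 healthy B6 mouse, with 4 groups of 3 libraries. The doxorubicin group had 100 nM of the drug for 24 h and was lysed on day 7. Its vehicle group had water and was also lysed on day 7. The peroxide group had 3 exposures of 2 h to 750 uM hydrogen peroxide, with 48 h of recovery between exposures, and was lysed on day 6. Its vehicle group had water and was lysed on day 6. Both vehicle groups were passaged to keep them growing, so treatment and culture history differed together within each experiment. Treatment, day and experiment cannot be told apart between the experiments. Nothing in the labels ties replicates to separate cultures; the p-values here rest on the spread between these libraries, which may be technical.

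Chaperones bind unfolded or partly folded proteins and help them to fold, assemble or be handed on for degradation. HSP70 works in cycles driven by ATP, with HSP40 proteins delivering substrates and HSP110 and BAG proteins releasing the nucleotide. HSP90 finishes many kinases and hormone receptors. TRiC encloses actin and tubulin, and HSP60 with HSP10 encloses proteins of the mitochondrial matrix. Small heat shock proteins hold unfolding proteins without ATP. In a heat shock, HSF1 trimers bind repeats of the unit GAA in alternating orientation in promoters and raise many of these genes within minutes to hours, but several members are also made at high levels in growing cells without stress.

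Library depth was estimated at 17300000 to 37600000 reads, so 3 reads, the limit that a count of 0 allows, corresponded to 0.0798 to 0.173 CPM; this covers counting error only. Pearson correlations within groups were 0.973 to 0.996. The largest direction of variation within groups, 46.8% of the within-group variance over all tested genes, set apart doxorubicin replicate 1 (score -23.9), doxorubicin vehicle replicate 3 (-23.9) and peroxide replicate 2 (-30.4). Fibroblast markers summed to 7484 CPM or more in every library. Mammary epithelial markers summed to 1.16 CPM or less in every library, with Krt8 and Krt14 listed at 0 in all libraries of 3 groups. Leukocyte markers summed to 27.1 to 32.6 CPM in doxorubicin cells and 11.1 to 17.7 CPM in their vehicle, and to 23.2 to 26.2 CPM in peroxide cells and 16.3 to 17.4 CPM in theirs, with Ptprc at a mean of 0 to 0.0421 CPM per group. Endothelial markers summed to 34.0 to 44.4 CPM in doxorubicin cells and 12.4 to 16.1 CPM in their vehicle, and to 22.1 to 27.3 CPM in peroxide cells and 5.57 to 9.19 CPM in theirs, nearly all of it Tek, with Cdh5 listed at 0 in 3 groups. Adipocyte markers, mostly Fabp4, summed to 22.0 to 29.3 CPM in doxorubicin cells and 55.5 to 64.7 CPM in their vehicle, and to 28.4 to 31.4 CPM in peroxide cells and 50.1 to 51.7 CPM in theirs. What part such cells have in the results was not tested.

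Most of the chaperone genes that changed were lower in treated cells. After doxorubicin 18 of 34 members were lower and 6 were higher, and 10 did not pass the test. Among the 6 is Hspa1a, which reached 1 CPM in treated libraries alone, so the filter set its direction; without it 5 of 33 were higher. After peroxide 21 were lower and 3 were higher, and 10 did not pass. Among all 13280 tested genes, 27.8% were lower and 22.1% higher after doxorubicin, and 23.4% were lower and 27.3% higher after peroxide. The share of lower members was thus 52.9% after doxorubicin and 61.8% after peroxide, above those backgrounds. The backgrounds were not matched for level or spread. The median within-group SD on the log2 scale was 0.117 for members and 0.168 for all tested genes. With a filter of 5 CPM, 56.2% of members were lower after doxorubicin, against 32.1% of all genes. After peroxide these shares were 65.6% and 27.1%. The share of higher members was 8.82% after peroxide, below its background. After doxorubicin it was 17.6% (15.2% without Hspa1a), near its background: with array weights it was 32.4%, against 31.8% of all genes, and without the 3 libraries that stand apart 26.5%, against 26.2%. The median log2 fold change of the members was -0.26 after doxorubicin, with -0.03 over all tested genes, and -0.47 after peroxide, with -0.01 over all tested genes.

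Summed over the 34 members, doxorubicin libraries held 12691, 11795 and 12162 CPM, against 15197, 15218 and 15572 CPM in their vehicle. Peroxide libraries held 12496, 12409 and 12550 CPM, against 18025, 18412 and 18022 CPM in their vehicle. In both experiments every treated library was below every vehicle library. Markers of dividing cells moved with this sum. Their total was 362 to 392 CPM in doxorubicin cells and 1033 to 1062 CPM in their vehicle, and 609 to 635 CPM in peroxide cells and 1573 to 1708 CPM in their vehicle. Of the 6 dividing-cell markers (Mki67, Top2a, Ccnb1, Cdk1, Mcm2 and Pcna), 5 were lower after doxorubicin and 6 after peroxide, and the part of proliferation in the chaperone values was not tested. In bulk RNA, fewer cells of a kind and less RNA per cell cannot be told apart.

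The 17 members that were lower in both treatments were Hspa4, Hspa8, Hspa9, Hspd1, Hspe1, Hsp90aa1, Hsp90ab1, Hspb8, Tcp1, Cct2, Cct3, Cct5, Cct7, Stip1, Fkbp4, Ptges3 and Chordc1. Only Hspb1 and Cryab passed as higher in both. The share of all tested genes called the same way in both treatments was not counted, so these joint counts have no background. Hsph1 was higher after doxorubicin and lower after peroxide. Dnajb1 and Bag3 passed as higher after doxorubicin and did not pass after peroxide, and so did Hspa1a, whose direction the filter set. Hspb6 was lower after doxorubicin, Dnajb4 higher after peroxide, and Dnaja2, Cct8 and Ahsa1 lower after peroxide, each without a call in the other treatment. The remaining 6 (Hsf1, Hspa1b, Trap1, Dnaja1, Dnajb6 and Cct4) passed in neither. Without the 3 libraries that stand apart, 29 members were called after doxorubicin and 26 after peroxide, and each count held all 24 of the full comparison. After doxorubicin 9 were higher and 20 lower, against 26.2% and 28.7% of all tested genes in that setting. After peroxide 3 were higher and 23 lower, against 28.5% and 25.8%. Those libraries were picked by their spread in these same data, so these counts are not independent support. Along the direction that sets those libraries apart, deviations from the group mean had a correlation above 0.8 over the 12 libraries for 4 members (Hsph1, Dnaja2, Cct8 and Fkbp4). They had one below -0.8 for 7 (Hsp90ab1, Hspb6, Cryab, Cct2, Cct3, Cct5 and Cct7). That direction was drawn from all tested genes, members included, and the share of all genes past these limits was not counted.

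**Figure D1:**
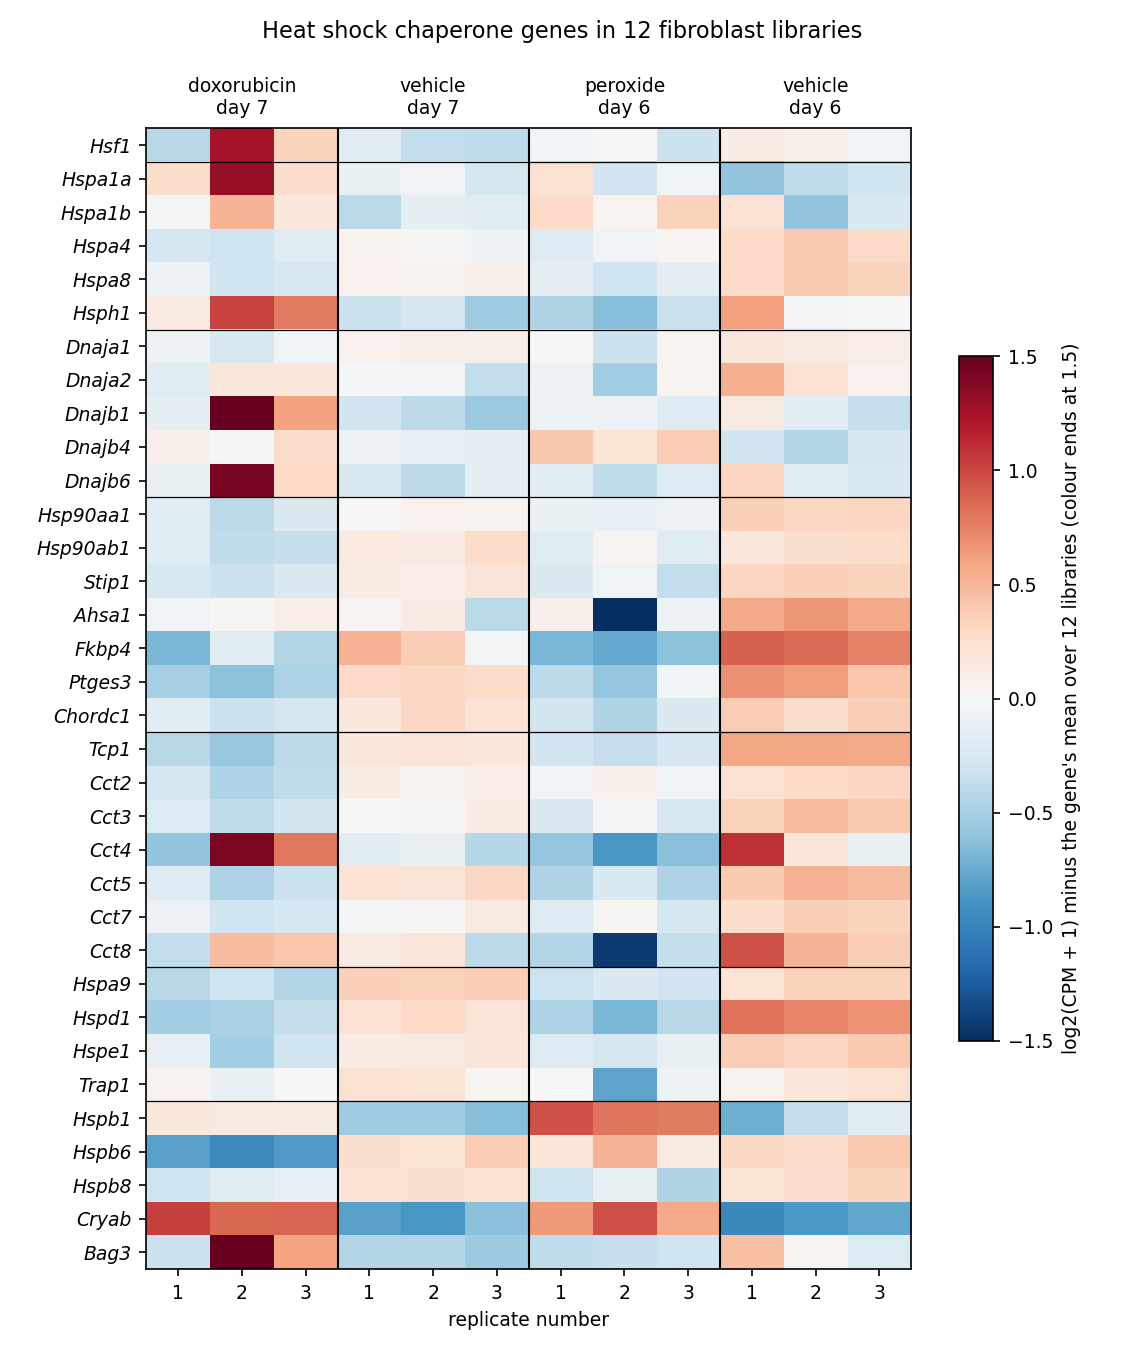
Each row is 1 of the 34 genes, grouped by family between horizontal lines, and each column 1 of the 12 libraries; colour gives log2(CPM + 1) minus the mean of that gene over the 12 libraries. Hspa9, Hspd1, Hspe1, Hsp90aa1, Tcp1 and Cct5 are blue in every treated library, Cryab is red in every one, and doxorubicin replicate 2 is red for Hsf1, Dnajb1, Dnajb6, Cct4 and Bag3.

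**Figure D2:**
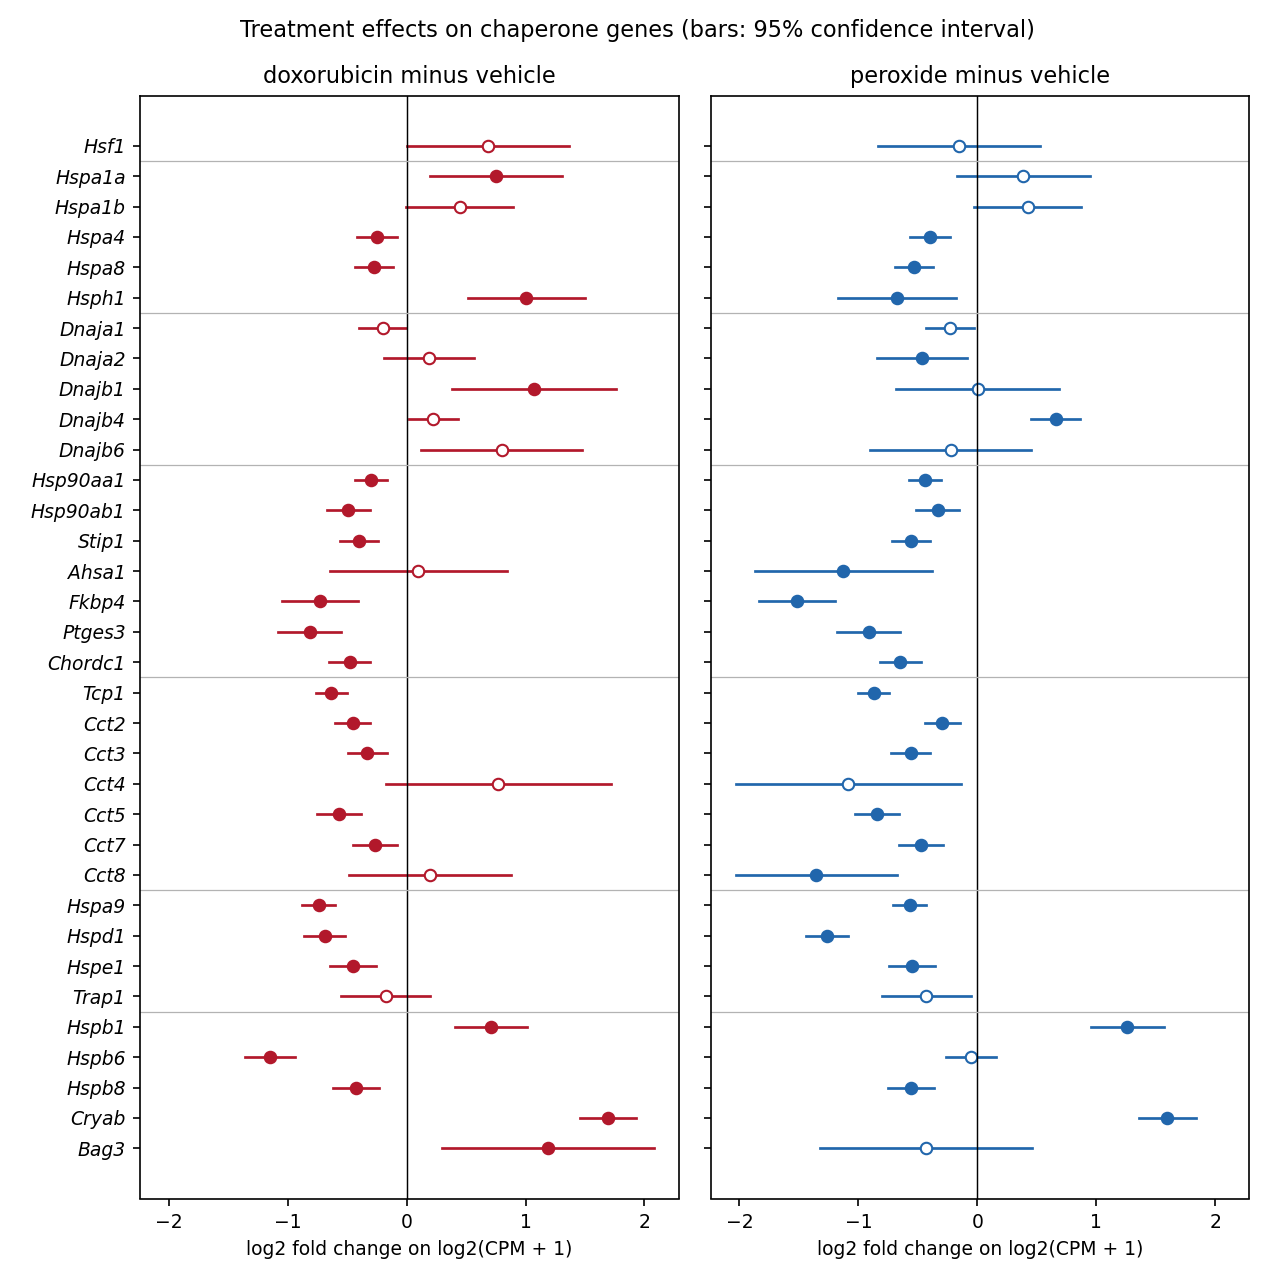
Points give the log2 fold change of each member on log2(CPM + 1), with the 95% confidence interval, for doxorubicin (left) and peroxide (right) against their own vehicles; filled points have an adjusted p below 0.05. Most filled points lie left of 0 in both panels, with Cryab at 1.69 and 1.60 on the right.

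The promoters of the set were searched for the heat shock element, the site that HSF1 trimers bind, because it is the sequence the family is best known to share. Windows of 300 bases, 250 before and 50 after the start, were taken from RefSeq (GRCm38.p6) and matched 27 of the 34 genes. No window was available here for the other 7: Hspa9, Hsf1, Hsp90ab1, Hsp90aa1, Hspa8, Cct4 and Cryab. The motifs were GAANNTTC and TTCNNGAA, each equal to its own reverse complement, so 1 search covers both strands; matches whose starts lie 5 bases apart overlap and make 3 alternating units. Either motif was present for 16 of 27 members (59.3%), against 17.0% of all 27025 genes in the table. The 3 alternating units were present for 5 members (18.5%), against 0.662% of all genes: Hspd1, Hspe1, Hsph1, Dnajb6 and Chordc1. A match is a description of these letters, not evidence of binding.

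The window of Hspe1 is shown whole because it also covers most of 1 of the 2 Hspd1 windows in the table. The pair, which encode HSP10 and HSP60, are transcribed away from each other at chr1:55087898-55088197 (shown on the plus strand). The Hspd1 window at chr1:55087883-55088182 shares 285 bases with it and has 3 motif matches. The other, at chr1:55088194-55088493, shares 4 bases with it and has 0 matches. Capitals mark the motif matches, and each sequence reads 5′ to 3′.
Hspe1: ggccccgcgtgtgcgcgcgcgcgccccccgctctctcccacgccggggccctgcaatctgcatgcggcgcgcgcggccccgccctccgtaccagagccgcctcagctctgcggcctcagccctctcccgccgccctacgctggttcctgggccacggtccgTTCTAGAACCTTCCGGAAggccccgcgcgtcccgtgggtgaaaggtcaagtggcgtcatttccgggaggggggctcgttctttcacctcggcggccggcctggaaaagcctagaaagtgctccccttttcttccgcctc
For the other members with 3 units, stretches of 60 bases around the matches are shown: Hsph1 at chr5:149636287-149636346 (minus strand), Dnajb6 at chr5:29735828-29735887 (plus strand) and Chordc1 at chr9:18292233-18292292 (plus strand).
Hsph1: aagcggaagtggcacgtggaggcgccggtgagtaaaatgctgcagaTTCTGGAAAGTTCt
Dnajb6: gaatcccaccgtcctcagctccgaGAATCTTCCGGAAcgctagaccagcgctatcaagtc
Chordc1: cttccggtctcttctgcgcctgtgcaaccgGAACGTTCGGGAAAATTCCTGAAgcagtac
Members with single or separated matches that moved in different directions are shown beside them: Hspb1 at chr5:135887788-135887847 (plus strand), Bag3 at chr7:128523573-128523632 (plus strand), Hspa1a at chr17:34972225-34972284 (minus strand) and Fkbp4 at chr6:128438772-128438831 (minus strand).
Hspb1: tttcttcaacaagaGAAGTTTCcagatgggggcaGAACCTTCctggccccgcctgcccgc
Bag3: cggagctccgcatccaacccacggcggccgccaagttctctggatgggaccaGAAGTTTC
Hspa1a: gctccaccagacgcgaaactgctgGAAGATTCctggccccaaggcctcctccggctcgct
Fkbp4: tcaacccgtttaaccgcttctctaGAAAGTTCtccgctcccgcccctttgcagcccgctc
Members with the motif were called in both directions. Of the 16 members with either motif, 4 were higher (Hspa1a among them) and 8 lower after doxorubicin, against 22.1% higher and 27.8% lower over all tested genes, and 2 were higher and 8 lower after peroxide, against 27.3% and 23.4%. The share of higher members among the 16, 25.0% after doxorubicin, was near that of all genes. Of the 11 with neither, 1 was higher and 6 lower after doxorubicin, and 0 were higher and 9 lower after peroxide. Of the 5 with 3 units, 1 (Hsph1) was higher and 3 (Hspd1, Hspe1 and Chordc1) were lower after doxorubicin, and 4 were lower after peroxide, Hsph1 among them.

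Hsf1 (chromosome 15, 76477422 to 76501913, plus strand), the regulator of the heat shock response, was a low transcript. It had 5.5, 19.4 and 9.90 CPM in doxorubicin cells, against 6.76, 5.74 and 5.64 CPM in their vehicle. Doxorubicin replicates 2 and 3 lay above the vehicle libraries and replicate 1 lay below them, and the log2 fold change of 0.69 ± 0.31 (SE) did not pass the test (adjusted p = 0.0865). It was 1.08 (adjusted p = 0.00260) without doxorubicin replicate 1 and 0.26 (adjusted p = 0.333) without replicate 2, so single libraries decide its size and its call. In peroxide cells it had 7.44, 7.72 and 5.94 CPM, against 8.36, 8.15 and 7.28 CPM in their vehicle, with overlapping groups and an adjusted p of 0.698.

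Of the 5 HSP70 and HSP110 genes of the cytosol, 2 (Hsph1, and Hspa1a with its direction set by the filter) were higher and 2 lower after doxorubicin, and 0 were higher and 3 lower after peroxide. Over all tested genes, 22.1% were higher and 27.8% lower after doxorubicin, and 27.3% were higher and 23.4% lower after peroxide. Hspa8, the constitutive cytosolic HSP70 (HSC70), was the most abundant member per length, at 1021 CPM per kb of exon over the 12 libraries. It had 4084, 3515 and 3684 CPM in doxorubicin cells, against 4518, 4506 and 4567 CPM in their vehicle, and 3950, 3527 and 3914 CPM in peroxide cells, against 5294, 5669 and 5477 CPM in theirs. Treated and vehicle libraries did not overlap in either experiment. The log2 fold change was -0.27 ± 0.07 (SE, adjusted p = 0.00950) after doxorubicin and -0.53 ± 0.07 (adjusted p = 0.000109) after peroxide; with median-of-ratios scaling the doxorubicin value was -0.21 with an adjusted p of 0.0579. Of its exon windows of 50 bases, 39.4% also occur in other genes, among them Gm15459, listed at a mean of 263 CPM.

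Hspa4, an HSP110 protein that exchanges nucleotide on HSP70, had 46.2, 44.7 and 48.6 CPM in doxorubicin cells, against 57.6, 56.2 and 52.6 CPM in their vehicle. It had 48.3, 53.4 and 56.5 CPM in peroxide cells, against 68.1, 72.9 and 67.9 CPM in their vehicle. It was lower in both without overlap, by a log2 fold change of -0.25 ± 0.08 (SE, adjusted p = 0.0176) and -0.40 ± 0.08 (adjusted p = 0.00115). The doxorubicin call was lost with median-of-ratios scaling (-0.19, adjusted p = 0.0639) and without doxorubicin replicate 2, vehicle replicate 1 or vehicle replicate 2 (adjusted p of 0.0533 to 0.0636).

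Hsph1, the other HSP110 protein, which is strongly induced by heat, moved in opposite directions. It had 27.2, 50.9 and 43.1 CPM in doxorubicin cells, against 19.6, 20.6 and 16.8 CPM in their vehicle. It had 17.8, 15.6 and 19.4 CPM in peroxide cells, against 38.5, 24.5 and 24.6 CPM in their vehicle. The groups did not overlap in either experiment, with doxorubicin cells above and peroxide cells below. The log2 fold change was 1.01 ± 0.22 (SE, adjusted p = 0.00332) after doxorubicin and -0.67 ± 0.22 (adjusted p = 0.0267) after peroxide. The peroxide call was lost without peroxide replicate 1, peroxide replicate 2 or vehicle replicate 1 (adjusted p of 0.0569 to 0.113), and without vehicle replicate 1 the log2 fold change was -0.46. Among libraries, Hsph1 followed the within-group direction described above (r = 0.80 over 12 libraries).

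Hspa1a and Hspa1b, the heat-inducible HSP70 genes, lie next to each other on chromosome 17 and cannot be cleanly told apart: their promoter windows are identical at 296 of 300 positions, and 58.8% of the Hspa1a exon windows and 62.3% of the Hspa1b windows also occur in the other gene. Hspa1a had 1.14, 3.43 and 1.15 CPM in doxorubicin cells, against 0.664, 0.719 and 0.486 CPM in their vehicle. Hspa1b had 1.10, 2.05 and 1.40 CPM in doxorubicin cells, against 0.619, 0.942 and 0.927 CPM in their vehicle. Both were near the filter, and Hspa1a passed it through 4 treated libraries and no vehicle library, so that its call (log2 fold change 0.75 ± 0.25 SE, adjusted p = 0.0283) had its direction set by the filter. That call was lost without doxorubicin replicate 2 (0.40, adjusted p = 0.0741) and without any 1 vehicle library (adjusted p of 0.0515 to 0.0829). Hspa1b did not pass (0.45 ± 0.21, adjusted p = 0.0921). After peroxide Hspa1a had 1.10, 0.461 and 0.713 CPM, against 0.184, 0.368 and 0.452 CPM in their vehicle, and Hspa1b had 1.62, 1.21 and 1.73 CPM, against 1.5, 0.428 and 0.828 CPM. Neither passed (adjusted p = 0.226 and 0.108), but the Hspa1b value of 0.42 was 0.63 (adjusted p = 0.0214) without vehicle replicate 1 and 0.23 without vehicle replicate 2.

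The HSP40 genes, which deliver substrates to HSP70 and stimulate its ATPase, had 1 of 5 higher and 0 lower after doxorubicin, and 1 of 5 higher and 1 lower after peroxide. The shares of all tested genes were 22.1% higher and 27.8% lower after doxorubicin, and 27.3% and 23.4% after peroxide. Dnajb1, the heat-inducible cytosolic HSP40, had 16.8, 55.0 and 28.9 CPM in doxorubicin cells, against 15.1, 14.0 and 12.3 CPM in their vehicle. All doxorubicin libraries lay above the vehicle, with replicate 1 close to it and replicate 2 at 3.28 times replicate 1. The log2 fold change was 1.07 ± 0.31 (SE, adjusted p = 0.0148). It was 0.64 (adjusted p = 0.0311) without doxorubicin replicate 2, and with the doxorubicin experiment fitted alone the adjusted p was 0.0554. After peroxide Dnajb1 had 17.5, 17.5 and 16.2 CPM, against 20.6, 16.5 and 14.4 CPM in their vehicle, with overlap (adjusted p = 0.996).

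Dnajb4, another cytosolic HSP40, had 61.8, 53.8 and 60.6 CPM in peroxide cells, against 37.9, 34.0 and 38.7 CPM in their vehicle, without overlap (log2 fold change 0.66 ± 0.09 SE, adjusted p = 0.000134). It had 49.0, 45.7 and 56.6 CPM in doxorubicin cells, against 43.9, 42.4 and 42.2 CPM in their vehicle, and did not pass (0.22 ± 0.09, adjusted p = 0.0635); it was 0.29 (adjusted p = 0.0321) without doxorubicin replicate 2 and 0.14 without replicate 3. Dnajb6, which holds back the aggregation of polyglutamine proteins, had 20.6, 62.0 and 27.8 CPM in doxorubicin cells, against 18.8, 16.8 and 20.1 CPM in their vehicle (0.80 ± 0.31, adjusted p = 0.0503). Here too replicate 2 stood far above the other doxorubicin libraries, and the value was 0.35 (adjusted p = 0.143) without it and 1.13 (adjusted p = 0.00658) without replicate 1. Dnajb6 after peroxide had an adjusted p of 0.572.

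Dnaja1 and Dnaja2, the type I HSP40 proteins of the cytosol, did not pass the test after doxorubicin. Dnaja1 had 319, 284 and 324 CPM in doxorubicin cells, against 352, 357 and 355 CPM in their vehicle, and 334, 267 and 346 CPM in peroxide cells, against 377, 369 and 358 CPM in theirs. Every treated library lay below the vehicle libraries, but neither comparison passed (adjusted p = 0.0869 and 0.0567). With peroxide replicate 2 left out, the peroxide value of -0.23 was -0.11 (adjusted p = 0.170), and the doxorubicin comparison had an adjusted p of 0.0119. Dnaja2 had 57.9, 42.7 and 63.6 CPM in peroxide cells, against 89.8, 72.2 and 64.8 CPM in their vehicle (-0.46 ± 0.17, adjusted p = 0.0426). That call was lost under 11 of 22 alternatives, among them the removal of peroxide replicate 2 (-0.30, adjusted p = 0.153) or of vehicle replicate 1 (-0.34, adjusted p = 0.162). Dnaja2 did not pass after doxorubicin (adjusted p = 0.388).

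HSP90 and its cochaperones had 6 of 7 lower after doxorubicin and 7 of 7 after peroxide, against 27.8% and 23.4% of all tested genes. TRiC had 5 of 7 and 6 of 7 lower, and the mitochondrial chaperones 3 of 4 in each treatment. Hsp90ab1, the constitutive cytosolic HSP90, had 2247, 1957 and 1987 CPM in doxorubicin cells, against 2831, 2770 and 3096 CPM in their vehicle. It had 2251, 2618 and 2254 CPM in peroxide cells, against 2874, 2999 and 3089 CPM in their vehicle. Hsp90aa1, the inducible cytosolic HSP90, had 437, 379 and 428 CPM in doxorubicin cells, against 495, 520 and 518 CPM in their vehicle. It had 464, 456 and 468 CPM in peroxide cells, against 638, 618 and 624 CPM in their vehicle. Neither gene overlapped between groups in either experiment. The log2 fold changes of Hsp90ab1 were -0.49 ± 0.08 (SE, adjusted p = 0.000528) and -0.33 ± 0.08 (adjusted p = 0.00581), and those of Hsp90aa1 were -0.30 ± 0.06 (adjusted p = 0.00185) and -0.44 ± 0.06 (adjusted p = 0.000132), each with doxorubicin before peroxide. Per length, Hsp90ab1 stood at 861 and Hsp90aa1 at 128 CPM per kb over all libraries; 47.5% of the Hsp90aa1 windows also occur elsewhere, among others in Gm12346, listed at a mean of 15.4 CPM.

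Fkbp4 (FKBP52), the immunophilin cochaperone of steroid receptors, had the largest fall of the set after peroxide. It had 22.8, 21.4 and 24.0 CPM in peroxide cells, against 69.7, 67.8 and 63.2 CPM in their vehicle, a log2 fold change of -1.52 ± 0.15 (SE, adjusted p = 7.51e-06). It had 22.7, 32.8 and 27.2 CPM in doxorubicin cells, against 53.8, 48.4 and 36.9 CPM in their vehicle (-0.73 ± 0.15, adjusted p = 0.00177). The treated libraries of both experiments lay below every vehicle library. Ptges3 (p23), which stabilises the closed HSP90 dimer, had 375, 346 and 381 CPM in doxorubicin cells, against 647, 653 and 639 CPM in their vehicle (-0.81 ± 0.12, adjusted p = 0.000202). It had 402, 353 and 515 CPM in peroxide cells, against 850, 814 and 705 CPM in their vehicle (-0.91 ± 0.12, adjusted p = 7.84e-05). Again no treated library reached its vehicle.

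Stip1 (HOP), which links HSP70 to HSP90, fell by 0.40 and 0.56 on the log2 scale after doxorubicin and peroxide (adjusted p = 0.000954 and 8.32e-05). Chordc1, an HSP90 binding protein, fell by 0.48 and 0.65 (adjusted p = 0.000423 and 4.09e-05). Ahsa1 (AHA1), the activator of the HSP90 ATPase, had 101, 31.2 and 90.7 CPM in peroxide cells, against 143, 152 and 142 CPM in their vehicle (-1.13 ± 0.34, adjusted p = 0.0167). Its peroxide replicate 2 was far below the other peroxide libraries, without it the log2 fold change was -0.60, and with the peroxide experiment fitted alone the adjusted p was 0.0560. In doxorubicin cells Ahsa1 had 92.4, 97.5 and 103 CPM, against 99.1, 105 and 72.5 CPM in their vehicle, with overlap (adjusted p = 0.824).

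The mitochondrial chaperones Hspd1 (HSP60), Hspe1 (HSP10) and Hspa9 (mortalin, the matrix HSP70) fell together in both treatments. Hspd1 had 474, 479 and 524 CPM in doxorubicin cells, against 783, 828 and 771 CPM in their vehicle, and 487, 417 and 506 CPM in peroxide cells, against 1181, 1124 and 1077 CPM in theirs. Hspe1 had 261, 199 and 231 CPM in doxorubicin cells, against 305, 312 and 322 CPM in their vehicle. It had 247, 235 and 262 CPM in peroxide cells, against 365, 356 and 371 CPM in theirs. Every treated library of both genes lay below its vehicle. The log2 fold change of Hspd1 was -0.69 ± 0.08 (SE, adjusted p = 3.12e-05) after doxorubicin and -1.26 ± 0.08 (adjusted p = 2.65e-07) after peroxide, and that of Hspe1 was -0.45 ± 0.09 (adjusted p = 0.00141) and -0.55 ± 0.09 (adjusted p = 0.000330). Their gene models overlap head to head by 112 bases (chromosome 1, 55088132 to 55088243) on opposite strands, and whether counting used strand is not given in the sources used here.

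Hspa9, which pulls proteins into the matrix, had 163, 177 and 160 CPM in doxorubicin cells, against 278, 276 and 279 CPM in their vehicle (-0.74 ± 0.06 SE, adjusted p = 2.83e-06). It had 174, 186 and 178 CPM in peroxide cells, against 250, 275 and 276 CPM in their vehicle (-0.57 ± 0.06, adjusted p = 1.99e-05). The groups did not overlap. Trap1, the mitochondrial HSP90, had 148, 132 and 144 CPM in doxorubicin cells, against 167, 165 and 146 CPM in their vehicle, with overlap (adjusted p = 0.418). In peroxide cells Trap1 had 144, 82.0 and 136 CPM, against 148, 160 and 168 CPM in their vehicle (-0.43 ± 0.17, adjusted p = 0.0544), and its low library was again peroxide replicate 2. The value was -0.18 (adjusted p = 0.105) without that library, -0.58 (adjusted p = 0.0192) without replicate 1 and -0.54 (adjusted p = 0.0353) without replicate 3.

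**Figure D3:**
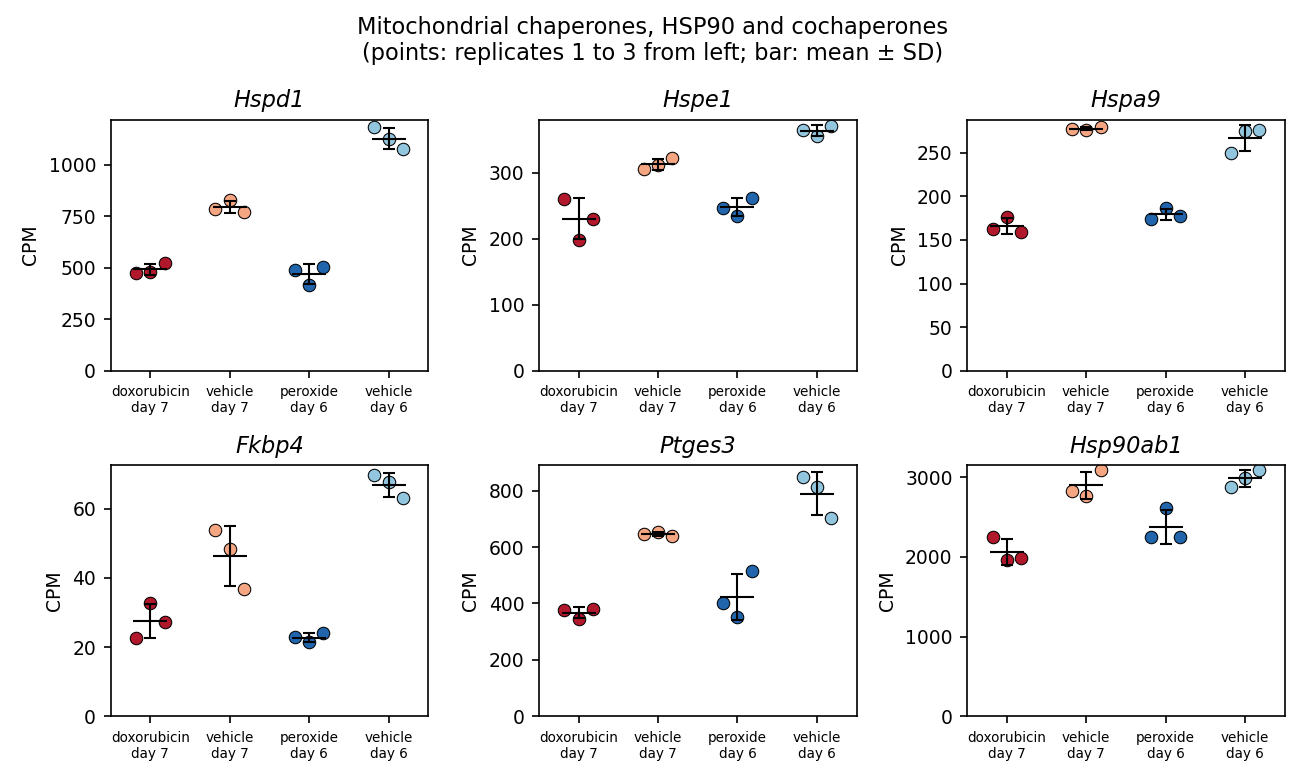
CPM (axes from 0) of Hspd1, Hspe1, Hspa9, Fkbp4, Ptges3 and Hsp90ab1 in each library, with the mean and SD of 3 libraries per group. Treated libraries lie below their own vehicle in all 6 genes. Every day 7 vehicle library stands below every day 6 vehicle library for Hspd1, Hspe1, Fkbp4 and Ptges3, of which Hspd1 and Fkbp4 passed the test.

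TRiC is a double ring of related subunits that folds actin and tubulin, of which 7 were in the set. Tcp1, Cct2, Cct3, Cct5 and Cct7 were lower in both treatments; Cct8 was lower after peroxide and Cct4 passed in neither. Tcp1, the founding subunit, had 420, 378 and 429 CPM in doxorubicin cells, against 630, 644 and 626 CPM in their vehicle, and 460, 442 and 473 CPM in peroxide cells, against 842, 843 and 836 CPM in theirs. Its groups were far apart, with log2 fold changes of -0.63 ± 0.06 (SE, adjusted p = 6.39e-06) after doxorubicin and -0.87 ± 0.06 (adjusted p = 4.97e-07) after peroxide. Cct5 had 762, 634 and 697 CPM in doxorubicin cells, against 1015, 1001 and 1080 CPM in their vehicle (-0.57 ± 0.09, adjusted p = 0.000236). In peroxide cells Cct5 had 638, 747 and 631 CPM, against 1147, 1250 and 1212 CPM in their vehicle (-0.84 ± 0.09, adjusted p = 1.08e-05). The other 3 subunits of this kind fell by 0.26 to 0.45 on the log2 scale after doxorubicin and by 0.29 to 0.56 after peroxide. The Cct7 call after doxorubicin (fell by 0.26) was lost with median-of-ratios scaling (adjusted p = 0.125) and without doxorubicin replicate 2, doxorubicin replicate 3 or vehicle replicate 3 (adjusted p of 0.0741 to 0.0909).

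Cct4 and Cct8 had a wider spread between replicates than the other subunits of the set. Cct4 had 54.1, 221 and 142 CPM in doxorubicin cells, against 73.5, 75.8 and 60.6 CPM in their vehicle, and 54.6, 44.3 and 52.7 CPM in peroxide cells, against 177, 93.1 and 75.9 CPM in theirs. Cct8 had 222, 395 and 384 CPM in doxorubicin cells, against 315, 323 and 219 CPM in their vehicle, and 212, 105 and 224 CPM in peroxide cells, against 556, 410 and 370 CPM in theirs. Doxorubicin replicates 2 and 3 lay above every library of their own vehicle for both genes; replicate 1 lay below the vehicle for Cct4 and within it for Cct8. The within-group SD on the log2 scale was 0.61 for Cct4 and 0.44 for Cct8, against 0.056 to 0.104 for the other 5. Cct8 followed the within-group direction (r = 0.98 over 12 libraries) and Cct4 did so less closely (r = 0.73), whereas r was -0.96 for Cct7 and 0.09 for Tcp1; the part of that direction in the Cct4 and Cct8 values was not tested. Cct8 fell by 1.35 ± 0.31 (SE, log2) after peroxide (adjusted p = 0.00363), and Cct4 had -1.08 ± 0.43 (adjusted p = 0.0545); after doxorubicin their values were 0.20 (adjusted p = 0.617) and 0.77 (adjusted p = 0.156). Cct4 after doxorubicin was 1.34 (adjusted p = 0.00441) without replicate 1 and 0.33 (adjusted p = 0.533) without replicate 2. Its peroxide value passed without doxorubicin replicate 1 or 2 or day 6 vehicle replicate 3 (adjusted p of 0.00720 to 0.0419). Cct6a, a subunit outside the set, had 204, 221 and 252 CPM in doxorubicin cells, against 266, 277 and 111 CPM in their vehicle, and 195, 59.7 and 224 CPM in peroxide cells, against 401, 410 and 382 CPM in theirs.

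**Figure D4:**
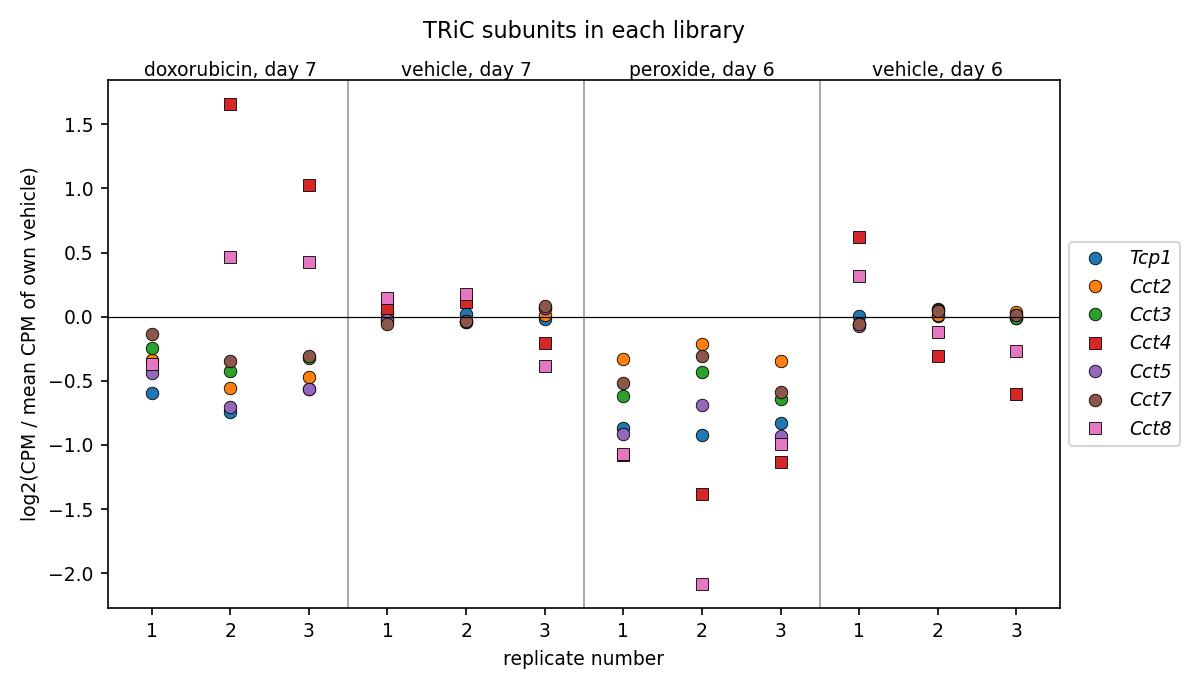
Log2 of CPM over the mean CPM of the own vehicle group for the 7 TRiC subunits in each library; squares are Cct4 and Cct8, circles the other 5. The circles lie together below 0 in both treated groups, while Cct4 and Cct8 spread above 0 in doxorubicin replicates 2 and 3.

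Small heat shock proteins split by gene. Cryab (alpha B crystallin, chromosome 9, 50751325 to 50756636, plus strand), which binds desmin and other filaments in muscle, had the largest rise of the set. It had 442, 394 and 399 CPM in doxorubicin cells, against 123, 118 and 139 CPM in their vehicle. It had 337, 426 and 321 CPM in peroxide cells, against 110, 118 and 126 CPM in their vehicle. The lowest treated library was well above the highest vehicle library in both experiments. The log2 fold change was 1.69 ± 0.11 (SE, adjusted p = 3.27e-07) after doxorubicin and 1.60 ± 0.11 (adjusted p = 5.08e-07) after peroxide, and the difference of 0.10 (95% interval -0.24 to 0.43) did not pass the test. Its neighbour Hspb2, with which 13.3% of its exon windows overlap, had 20.5, 20.9 and 18 CPM in doxorubicin cells, against 11.4, 10.4 and 10.6 CPM in their vehicle. Contractile markers, which include Acta2 and Des, summed to 4473 to 5156 CPM in doxorubicin cells and 1152 to 1283 CPM in their vehicle, and to 6911 to 9934 CPM in peroxide cells and 5443 to 6232 CPM in theirs. All 7 of these markers were higher in both treatments, and their part in the Cryab values was not tested.

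Hspb1 (HSP25, the mouse HSP27), which caps actin filaments and is heat-inducible, was higher at a far lower level. It had 3.28, 3.20 and 3.15 CPM in doxorubicin cells, against 1.65, 1.64 and 1.45 CPM in their vehicle (0.71 ± 0.14, adjusted p = 0.00143). It had 6.38, 5.66 and 5.53 CPM in peroxide cells, against 1.3, 1.98 and 2.39 CPM in their vehicle (1.26 ± 0.14, adjusted p = 1.99e-05). Groups did not overlap, and peroxide cells were the highest. Its pseudogene Hsp25-ps1 is among the genes that share 50.1% of its windows, and was listed at a mean of 0.568 CPM.

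Hspb6 (HSP20) is a small heat shock protein of muscle. It had 59.1, 53.6 and 57.5 CPM in doxorubicin cells, against 124, 121 and 136 CPM in their vehicle. This is a log2 fold change of -1.15 ± 0.10 (SE, adjusted p = 2.48e-06), the largest fall of the set after doxorubicin. It had 119, 149 and 116 CPM in peroxide cells, against 130, 127 and 138 CPM in their vehicle, with overlap (-0.05 ± 0.10, adjusted p = 0.677). Only peroxide replicate 2 was not below the vehicle. Without the 3 libraries that stand apart, that replicate among them, Hspb6 was called lower after peroxide (-0.17, adjusted p = 0.0484). Hspb8 (HSP22), the partner of Bag3 in selective autophagy, had 48.8, 52.9 and 55.1 CPM in doxorubicin cells, against 69.7, 71.0 and 70.3 CPM in their vehicle (-0.42 ± 0.09, adjusted p = 0.00222). It had 48.6, 55.5 and 43.5 CPM in peroxide cells, against 69.5, 71.7 and 76.4 CPM in their vehicle (-0.56 ± 0.09, adjusted p = 0.000328), so it was lower in every treated library.

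Bag3, which joins HSP70 to small heat shock proteins, had 26.8, 127 and 51.5 CPM in doxorubicin cells, against 24.6, 24.7 and 22.9 CPM in their vehicle. The doxorubicin libraries ranged 4.73-fold, and replicate 1 was barely above the vehicle. The log2 fold change of 1.19 ± 0.41 (SE, adjusted p = 0.0301) was 0.61 (adjusted p = 0.0671) without doxorubicin replicate 2, and the call was also lost without doxorubicin replicate 3 or any 1 vehicle library (adjusted p of 0.0573 to 0.0731). After peroxide Bag3 had 25.7, 26.4 and 27.3 CPM, against 46.3, 34.8 and 29.1 CPM in their vehicle, every treated library below the vehicle without a call (-0.43 ± 0.41, adjusted p = 0.399).

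**Figure D5:**
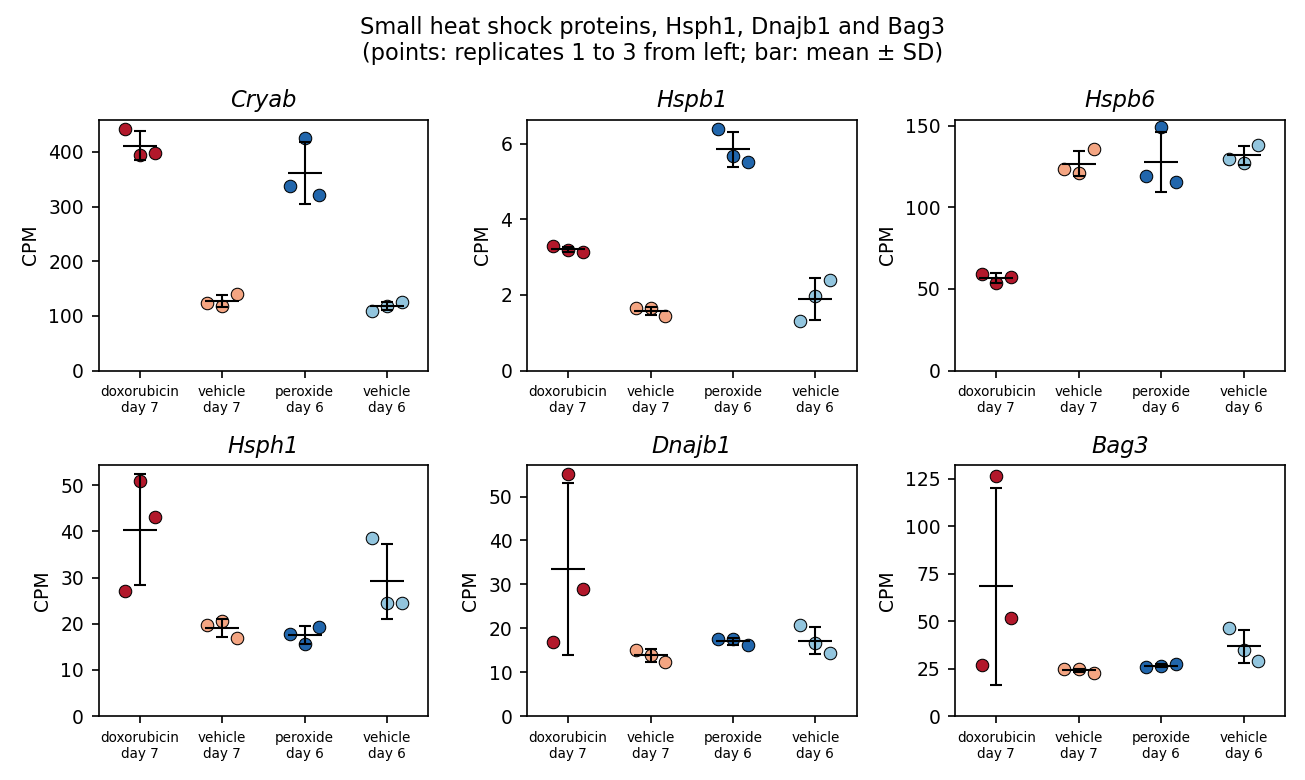
CPM (axes from 0) of Cryab, Hspb1, Hspb6, Hsph1, Dnajb1 and Bag3 in each library, with the mean and SD of 3 libraries per group. Cryab and Hspb1 are separated from their vehicles in both treatments, Hspb6 in doxorubicin cells alone, and the doxorubicin points of Dnajb1 and Bag3 are widely spread with replicate 2 highest.

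The effects of the 2 treatments, each against its own vehicle, were then compared directly. For 7 of 34 members the doxorubicin effect was above the peroxide effect (Hsph1, Hspd1, Bag3, Tcp1, Cct4, Cct8 and Fkbp4) and for 3 it was below (Hspb6, Hspb1 and Dnajb4). Over all tested genes, 13.5% were above and 20.1% below. The median difference was 0.22 for the members and -0.07 for all tested genes. Hsph1, Hspd1, Hspb6 and Fkbp4 kept their call under all 21 alternatives, and the other 6 lost it under 5 to 16 of them. For Hsph1 the difference was 1.68 ± 0.32 (SE, log2, adjusted p = 0.00325), with 27.2 to 50.9 CPM in doxorubicin cells and 15.6 to 19.4 CPM in peroxide cells. For Hspb6 it was -1.09 ± 0.13 (adjusted p = 0.000320), with 53.6 to 59.1 CPM in doxorubicin cells and 116 to 149 CPM in peroxide cells. For Hspd1 and Fkbp4 the treated levels were close to each other and the vehicles were apart: Hspd1 had 474 to 524 CPM in doxorubicin cells and 417 to 506 CPM in peroxide cells, against 771 to 828 CPM in the day 7 vehicle and 1077 to 1181 CPM in the day 6 vehicle. The difference was 0.58 ± 0.11 (adjusted p = 0.00373) for Hspd1 and 0.79 ± 0.21 (adjusted p = 0.0154) for Fkbp4.

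The vehicles themselves differed in chaperone genes. Relative to the day 6 vehicle, 9 of 34 members were lower in the day 7 vehicle and 0 were higher, whereas over all tested genes 12.9% were lower and 15.1% higher. The 9 were Hspa4, Hspa8, Hspd1, Hsp90aa1, Tcp1, Cct2, Cct3, Cct7 and Fkbp4. Among these 9 the largest changes were in Fkbp4 (-0.54 ± 0.15 SE, adjusted p = 0.0189), Hspd1 (-0.50 ± 0.08, adjusted p = 0.000843) and Tcp1 (-0.41 ± 0.06, adjusted p = 0.000537). Members without a call reached -0.67. The summed level of the members was 15197 to 15572 CPM in the day 7 vehicle and 18022 to 18412 CPM in the day 6 vehicle. Dividing-cell markers moved the same way, with 6 of 6 lower in the day 7 vehicle. Contractile markers were lower in the day 7 vehicle for 6 of 7, with a median log2 difference of -2.19 and sums of 1152 to 1283 CPM in the day 7 vehicle and 5443 to 6232 CPM in the day 6 vehicle. The part of either marker list in the chaperone difference was not tested. The Fkbp4 call was lost without day 7 vehicle replicate 3 or day 6 vehicle replicate 1 or 2 (adjusted p of 0.0595 to 0.0723), and the Hspa8 call without day 7 vehicle replicate 1 or day 6 vehicle replicate 2 (0.0512 to 0.0668). The Cct7 call was lost without day 7 vehicle replicate 1 or 2 or any 1 of the day 6 vehicle libraries (0.0505 to 0.0983). The Cct2 call was lost without any 1 vehicle library, doxorubicin replicate 3 or peroxide replicate 1 (0.0628 to 0.132).

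Other genes of the same pathways were counted from lists of 75 genes, of which 72 were tested. After doxorubicin 11 were higher (15.3%, against 22.1% of all tested genes) and 20 lower (27.8%, the share of all tested genes). After peroxide 12 were higher (16.7%, against 27.3%) and 24 lower (33.3%, against 23.4%). The shares in single lists below are to be read against the same backgrounds. Among 23 tested HSP70, HSP40 and small heat shock protein genes, 6 were higher and 6 lower after doxorubicin (26.1% each), and 6 higher (26.1%) and 5 lower (21.7%) after peroxide, all near the background, with median log2 fold changes of 0.10 and -0.04. Hspb7, the cardiovascular small heat shock protein, rose most: it had 57.8, 63.6 and 66.8 CPM in doxorubicin cells, against 5.13, 4.74 and 6.93 CPM in their vehicle (log2 fold change 3.28 ± 0.17 SE, adjusted p = 5.23e-08). It had 51.8, 74.5 and 46.5 CPM in peroxide cells, against 16.2, 15.0 and 14.3 CPM in their vehicle (1.83 ± 0.17, adjusted p = 4.85e-06). The lowest were Hspb11, an intraflagellar transport protein, after doxorubicin (-0.66) and the nucleotide exchange factor Hspbp1 after peroxide (-1.37). Hspbp1 had 14.0, 3.83 and 14.3 CPM in peroxide cells; without peroxide replicate 2 its value was -0.82 (adjusted p = 0.104), and the call was also lost without any 1 day 6 vehicle library.

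Among 14 other HSP90 cochaperones, 0 were higher in either treatment, 5 (35.7%) were lower after doxorubicin (median 0.22) and 6 (42.9%) after peroxide (median -0.43). Fkbp5, an immunophilin that is induced by glucocorticoids, had 3.45, 3.43 and 2.33 CPM in doxorubicin cells, against 8.39, 8.48 and 9.85 CPM in their vehicle (-1.29 ± 0.14, adjusted p = 2.08e-05). Unc45a, a myosin chaperone, was lowest after peroxide (-1.47, adjusted p = 0.0237), at 24.8, 7.23 and 26.5 CPM in peroxide cells. Its value was -0.90 (adjusted p = 0.0769) without peroxide replicate 2, and the call was also lost without day 6 vehicle replicate 1 or 2. Among 10 further genes of TRiC and prefoldin, which hands substrates to TRiC, 0 were higher and 4 lower after doxorubicin, with Vbp1 lowest (-0.84) and a median of -0.23, and 1 was higher (Pfdn5, 0.58) and 4 lower after peroxide, with Cct6a lowest (-1.52, and -0.92 without peroxide replicate 2) and a median of -0.25. Among 17 other mitochondrial cochaperone, import and protease genes, 2 were higher and 4 (23.5%, near the background) lower after doxorubicin, led by Htra2 (1.56) and the matrix protease Lonp1 (-1.10) with a median of 0.02, and 1 was higher and 7 (41.2%) lower after peroxide, led by Hscb (0.87) and Dnajc19 (-1.85) with a median of -0.37. Dnajc19 had 15.5, 5.34 and 16.4 CPM in peroxide cells, against 68.3, 37.4 and 31.3 CPM in their vehicle. Its low library was again peroxide replicate 2, and vehicle replicate 1 stood far above the other vehicle libraries. The Htra2 call was lost without doxorubicin replicate 2 or 3 or day 7 vehicle replicate 3 (adjusted p of 0.0949 to 0.108). Of 8 further heat shock factors and heat-inducible genes, 3 (37.5%) were higher and 1 (12.5%) lower after doxorubicin, with Ubb, a polyubiquitin gene, at 0.63, Hsf2 at -0.88 and a median of 0.50. After peroxide 4 (50.0%) were higher and 2 (25.0%) lower, with Hsbp1, a binder of HSF1 trimers, at 0.90 and the collagen chaperone Serpinh1 at -2.07, and a median of 0.38. Serpinh1 had 960, 217 and 1259 CPM in peroxide cells; without peroxide replicate 2 its value was -1.29 (adjusted p = 0.134), and the call was also lost without day 6 vehicle replicate 1 or 2.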

How the data were processed

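RNA from 12 libraries was measured by sequencing. The deposited table gives CPM per gene, scaled by the authors to 1e+06 per library. Per the submitters' processing notes, bcl2fastq, DRAGEN and the build mm10 were used; no source used here names a counting method, an annotation release or the use of strand. The table had 55774 lines; 287 repeated a gene with equal values, leaving 55487 genes. Low values came in hundredths of a read, and only 74.7% to 79.9% of those at 20 reads or fewer fell within 0.001 of a whole read, as estimated counts do; no count model was used.

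The 13280 genes that reached 1 CPM in 3 or more libraries were tested on log2(CPM + 1), which understates changes of low genes, with limma 3.58.1 (R 4.3.3; 4 groups in 1 fit, mean-variance trend, 8 residual degrees of freedom, two-sided, Benjamini-Hochberg over all tested genes, threshold 0.05). Fold changes are on that scale. The procedure was run on simulated data with independent noise for each gene and library. Such data hold no variation shared between genes within groups, so they cannot speak for calls that single libraries decide. All 34 members are reported, and from each list of other chaperone genes the called genes with the largest positive and negative change in each treatment are named. Members, lists and tests were chosen with earlier results of these data known. Genes were matched by Ensembl ID to GENCODE (GRCm38). Shared sequence is the share of 50-base exon windows also found in other genes. It was at least 10% for 12 members, Dnaja1 (20.55%) and Ptges3 (19.59%) among them. Alternatives were other pseudocounts, filters, scaling, weights, a replicate block, separate fits and leaving out libraries. Python 3.11.15 was used.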

Additional observations from a re-analysis of the deposited data

Results flagged for a closer look

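For 10 chaperone genes a test of the difference itself found unequal effects of doxorubicin and peroxide, each against its own vehicle (limma, log2 scale, adjusted over all tested genes). The doxorubicin effect was above the peroxide effect for Hsph1 by 1.68, Hspd1 by 0.58, Fkbp4 by 0.79, Cct8 by 1.55, Cct4 by 1.86, Bag3 by 1.62 and Tcp1 by 0.24. It was below for Hspb6 (-1.09), Hspb1 (-0.55) and Dnajb4 (-0.43). Over all tested genes, the doxorubicin effect was above for 13.5% and below for 20.1%.

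Hsph1, Hspd1, Fkbp4 and Hspb6 passed under all 21 alternatives. The Hspb1 call (adjusted p = 0.0490) was lost without any 1 library other than day 6 vehicle replicate 3, at adjusted p of 0.0583 to 0.0975. The Bag3 call (0.0489) was lost without any 1 library other than doxorubicin replicates 1 and 2 (0.0546 to 0.108), and without doxorubicin replicate 2 the difference was 1.04. The Tcp1 call (0.0465) was lost without any 1 library other than doxorubicin replicate 2 and peroxide replicate 3 (0.0633 to 0.110). The Cct4 call (0.0374) was lost without any 1 library other than doxorubicin replicate 1 and day 6 vehicle replicate 3 (0.0566 to 0.0855). The Cct8 call (0.0207) was lost without doxorubicin replicate 2 or 3, day 7 vehicle replicate 3 or day 6 vehicle replicate 1 (0.0508 to 0.0523). The Dnajb4 call (0.0278) was lost without doxorubicin replicate 2, day 7 vehicle replicate 1 or 3, peroxide replicate 1 or 3, or day 6 vehicle replicate 2 (0.0501 to 0.0686). Each such fit also has fewer samples. For Tcp1, as for Hspd1 and Fkbp4, the treated levels lay close together (378 to 429 CPM in doxorubicin cells, 442 to 473 CPM in peroxide cells) and the vehicles apart (626 to 644 CPM on day 7, 836 to 843 CPM on day 6).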

How the results depend on the processing

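The number of members called was 24 after doxorubicin (21 to 30 under 22 alternatives) and 24 after peroxide (22 to 28). After doxorubicin 15 to 20 were lower and 3 to 11 higher: the 6 higher became 11 with array weights, 9 without the 3 libraries that stand apart or without doxorubicin replicate 1, 8 (and 15 lower) with median-of-ratios scaling, 4 with no filter or without any 1 day 7 vehicle library, and 3 with the experiment fitted alone. After peroxide 19 to 24 were lower and 3 to 5 higher. The share of lower members was above that of all tested genes under every alternative in both treatments. Of 87 results for single members, 53 kept their direction and their side of the threshold under every alternative run for them. The number whose effects differed between treatments (10) was 4 with no filter on low values, 22 with array weights, 16 without the 3 libraries that stand apart, and 4 to 12 when each library was left out in turn. The number that differed between vehicles (9) was 18 with array weights, 14 without the 3 libraries that stand apart, and 5 to 13 when each library was left out. For the difference and the vehicle comparison, the share of all tested genes called under each alternative was not counted. Whether these counts moved more than those of all genes is therefore not known. Fewer libraries leave fewer degrees of freedom; the cause of the other shifts was not tested. Values near 0 changed sign: Ahsa1 after doxorubicin (0.10) was -0.023 without the 3 libraries and -0.061 to 0.20 with single libraries left out. Dnajb1 after peroxide (0.002) was -0.011 with median-of-ratios scaling, -0.015 without the 3 libraries and -0.11 to 0.13 with single libraries left out. Hspb6 after peroxide (-0.05) was -0.17 to 0.016 with single libraries left out. With the replicate number as a block, 24, 23, 7 and 6 members were called after doxorubicin, after peroxide, for the difference and between vehicles. The labels do not say whether the numbers pair the libraries. In the doxorubicin experiment, correlations of deviations between libraries of the same number were -0.31, 0.19 and -0.28. In the peroxide experiment they were 0.14, 0.03 and -0.24. Not every library correlated best with its own number. These values cannot decide on pairing, because the deviations of a group are tied to its mean and single libraries weigh heavily in them. Separate fits cannot give the difference or the vehicle comparison and were not run for them. Median-of-ratios scaling moved the median of all tested genes by 0.05 after doxorubicin and -0.01 after peroxide. Depth limits Hspa1a, Hspa1b and Hspb1 most, at a few CPM or less.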
